A study of Mus musculus with 56 samples.

Results

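The 43 genes described here encode proteins that build ribosomes in the nucleolus. They were chosen as a list of symbols around Rrs1, which was picked because its level was higher in mice given an antibody against interleukin 6 (IL-6), and they are 43 of the 52244 Ensembl genes in the deposited table. All 43 were found and all 43 were tested. The choice therefore used the difference between anti-IL-6 and isotype mice, and that difference is given below as a description only. The reason given names neither the comparisons without anti-IL-6 and isotype mice nor the relation to Dbp between mice of the same group. The list was, however, drawn up with earlier results of these data known, so its independence from these cannot be shown. Dbp is an output gene of the circadian clock. Comparisons of isotype mice with the other groups share the isotype libraries with the choice.

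RNA was sequenced from homogenates of front paws of male DBA/1 mice on day 91 of a collagen-induced arthritis (CIA) experiment, a model in which immunity to cartilage collagen inflames the joints. Immunisation with chicken type II collagen took place on days 1 and 21. From day 21 the immunised mice were injected 2 times a week for 5 weeks. The isotype group (13 mice) received a control IgG1 at 30 mg/kg, the anti-TNF group (13 mice) clone XT3.11 at 30 mg/kg, the anti-IL-6 group (13 mice) clone MP5-20F3 at 10 mg/kg, and the combination group (13 mice) both antibodies at those doses. The no CIA group held 4 mice without arthritis, for which the labels list no treatment. Dosing had ended when the paws were taken. Each of the 56 libraries carries the number of a separate mouse, and p-values measure the spread between these libraries. A paw homogenate mixes muscle, skin, bone and joint tissue, so fewer cells of a type and less RNA per cell cannot be told apart.

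Ribosome production starts when RNA polymerase I copies the ribosomal RNA genes into one long precursor. Small nucleolar ribonucleoproteins (snoRNPs) guide the chemical modification of that precursor, the box C/D kind for methylation and the box H/ACA kind for pseudouridine. Assembly factors then fold, cut and package it into the small and the large ribosomal subunit, and MYC is a well known activator of the genes for many of these factors. The list holds 3 genes of rRNA transcription, 4 of box C/D and 4 of box H/ACA snoRNPs. It also holds 13 of small-subunit assembly, 16 of large-subunit assembly and 3 of nucleolar chaperones and a helicase. Polr1a, Polr1b and Mybbp1a act in transcription, Fbl, Nop56, Nop58 and Rrp9 in box C/D and Dkc1, Gar1, Nhp2 and Nolc1 in box H/ACA snoRNPs. The small-subunit factors are Utp15, Utp20, Heatr1, Wdr43, Nop14, Noc4l, Imp4, Rrp12, Ltv1, Bysl, Tsr1, Nob1 and Ddx10. The large-subunit factors are Rrs1, Pes1, Bop1, Wdr12, Ebna1bp2, Nop2, Nop16, Noc2l, Noc3l, Gnl2, Gnl3, Gtpbp4, Nip7, Mrto4, Ddx18 and Rrp1b. The nucleolar chaperones and helicase are Ncl, Npm1 and Ddx21.

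The 6-base E-box CACGTG is a sequence bound by MYC with its partner MAX and by the clock activators, and it is shown because the members are compared below with Myc and Dbp. RefSeq promoter windows (GRCm38.p6, 250 bases before to 50 bases after the start site) were found for 37 of the 43 members. None was found for Rrs1, Fbl, Bop1, Rrp12, Gnl2 and Npm1, so their promoters were not searched. The E-box letters, searched on both strands, were present in 8 of these 37 windows (21.6%) and in 8.09% of the windows of 27025 genes. The D-box letters TTATGTAA or TTACGTAA, bound by the DBP protein, were in 0 of the 37 windows and in 1.23% of all windows. Searches for 2 more motifs found CACGCG in 12 member windows (32.4%, against 10.49% of all) and GGGCGG in 29 (78.4%, against 38.2% of all). In the member windows 0 of the 8 E-box matches shared bases with a match of another of these motifs. The 8 E-boxes with up to 12 bases on either side, cut at the end of the window, are printed below with the E-box in capitals. They lie at chr1:34439696-34439725 (Imp4, plus strand), chr6:125131811-125131840 (Nop2, plus), chr10:13193092-13193121 (Ltv1, minus), chr10:88826765-88826789 (Utp20, minus), chr11:3963965-3963994 (Pes1, plus), chr11:72441355-72441376 (Mybbp1a, plus), chr11:74898092-74898121 (Tsr1, plus) and chr17:71616220-71616249 (Wdr43, plus). In Imp4 and Nop2 the E-box begins 121 and 60 bases before the start site, and in the other 6 genes it lies after it. Such a match describes letters and was not tested as a binding site. The windows of all genes include genes below the level tested here, and base composition was not taken into account.
Imp4: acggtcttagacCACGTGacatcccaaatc
Nop2: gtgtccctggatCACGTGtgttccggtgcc
Ltv1: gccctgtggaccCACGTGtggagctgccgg
Utp20: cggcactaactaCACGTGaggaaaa
Pes1: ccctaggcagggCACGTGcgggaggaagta
Mybbp1a: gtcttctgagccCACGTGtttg
Tsr1: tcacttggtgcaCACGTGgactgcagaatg
Wdr43: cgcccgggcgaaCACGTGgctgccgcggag

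Estimated depth was 39.86 to 54.62 M fragments per library, and the range was similar in every group. Of the 43 identifiers, 39 matched GENCODE M21 (GRCm38) with their version, on 17 chromosomes. Among these, 19 overlap a gene on the opposite strand, such as Nop56 with Idh3b and Heatr1 with Lgals8. Strand use in counting is not given in the sources used here, so reads of such pairs may have been counted together. Markers of the paw's tissues were present: all 12 skeletal muscle and all 8 fibroblast markers had a mean FPKM of at least 1 in every group, and 5 to 7 of 7 chondrocyte markers did. The summed level of the 12 muscle markers ran from 1596 to 34540 FPKM in the anti-IL-6 libraries and from 4134 to 53010 FPKM in the combination libraries, and spanned similarly wide ranges in the other immunised groups.

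Rrs1 encodes a large-subunit assembly factor that helps to place the small 5S particle into the growing subunit. It is a single-exon gene at chr1:9545408-9547455 (plus strand, ENSMUSG00000061024.8). In the 4 no CIA libraries its level was 12.91, 10.47, 8.858 and 13.07 FPKM (fragments per kilobase and M mapped fragments). The isotype libraries ran from 10.3 through a median of 12.19 to 13.24 FPKM. The range was 10.03 to 16.23 FPKM (median 12.05) in anti-TNF, 12.29 to 16.71 FPKM (median 14.75) in anti-IL-6 and 8.816 to 14.18 FPKM (median 12.05) in combination libraries. Means were 11.33 ± 2.03 (SD, n = 4) in no CIA, 11.97 ± 1.00 (n = 13) in isotype, 12.28 ± 1.84 (n = 13) in anti-TNF, 14.55 ± 1.36 (n = 13) in anti-IL-6 and 11.82 ± 1.36 FPKM (n = 13) in combination mice. In the order of means, anti-IL-6 came first, followed by anti-TNF, isotype, combination and no CIA. The last 4 of these lay within 1 SD of each other. The 10 highest anti-IL-6 libraries lay above the highest isotype library, while the other 3 overlapped the isotype range. The estimated number of Rrs1 fragments was 854 to 1816 per library, a counting error of 2.35% to 3.42%, which is below the spread between mice.

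**Figure D1:**
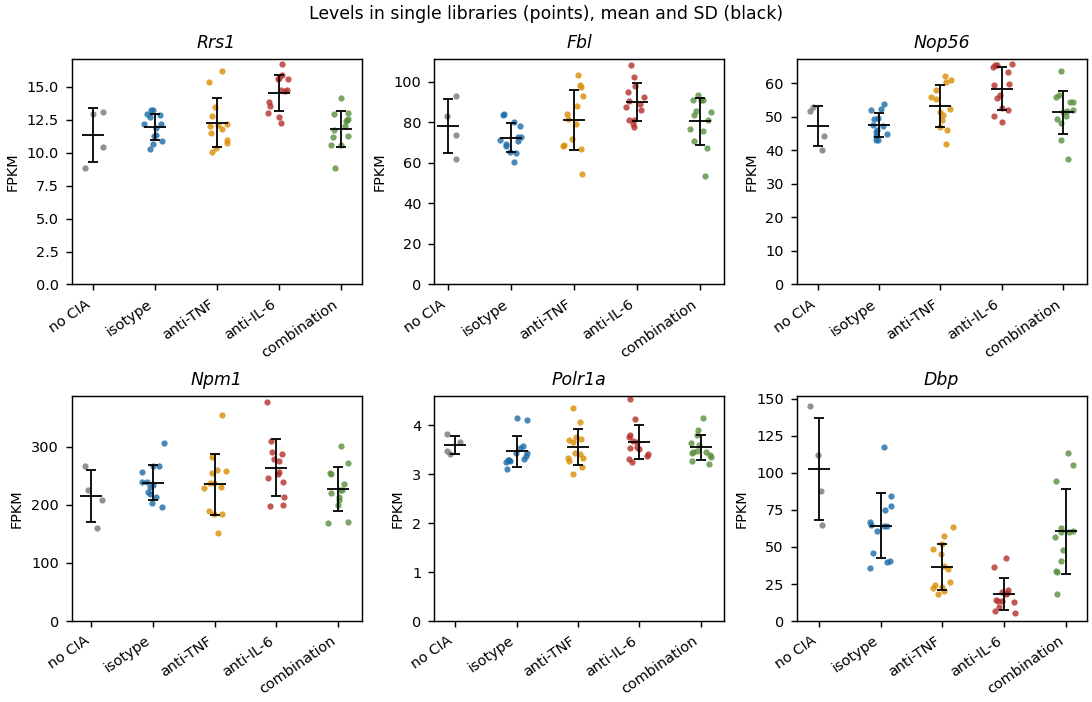
FPKM of Rrs1, Fbl, Nop56, Npm1, Polr1a and Dbp on linear axes from 0, with 1 point per library, in the no CIA group (4 libraries) and the isotype, anti-TNF, anti-IL-6 and combination groups (13 each); black lines are means and bars 1 SD. The anti-IL-6 mean is the highest for the 5 ribosome biogenesis genes and the lowest for Dbp (18.0 FPKM), and the groups overlap in Rrs1, where anti-IL-6 libraries span 12.29 to 16.71.

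FPKM divides by transcript length, but the annotation that gave the lengths is not known here, so levels of different members compare only roughly. Among the rRNA transcription genes, Mybbp1a, a nucleolar protein that binds the polymerase I machinery, had the highest mean over all libraries (28.3 FPKM) and Polr1a, the largest polymerase I subunit, the lowest (3.56 FPKM). Of the box C/D genes, Fbl (fibrillarin, the rRNA methyltransferase) averaged 80.7 FPKM and Rrp9, a protein of the snoRNP that directs early precursor cleavage, 15.8 FPKM. In the box H/ACA group the core protein Nhp2 averaged 78.2 FPKM and Dkc1 (dyskerin, the pseudouridine synthase) 11.8 FPKM. The small-subunit factors ran from 3.16 FPKM for Utp20, an early processing factor, to 20.3 FPKM for Nob1, the endonuclease of the last cleavage. Large-subunit factors ran from 3.89 FPKM for Noc3l to 38.5 FPKM for its relative Noc2l. Npm1, the nucleolar chaperone nucleophosmin, was the most abundant member at 239 FPKM, against 16.3 FPKM for the helicase Ddx21. RNA levels for proteins of a single kind of snoRNP were thus far apart in FPKM.

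The RNA of proteins that work as 1 complex can be followed across the groups. Pes1, Bop1 and Wdr12 form the PeBoW complex of large-subunit maturation. Pes1 averaged 30.1 ± 4.13 FPKM (SD, n = 4) in no CIA, 28.7 ± 1.86 (n = 13) in isotype, 29.4 ± 3.27 (n = 13) in anti-TNF, 31.0 ± 2.19 (n = 13) in anti-IL-6 and 29.0 ± 2.85 (n = 13) in combination mice. In the same order Bop1 averaged 22.7, 21.9, 23.1, 25.2 and 22.5 FPKM and Wdr12 7.42, 6.94, 7.16, 7.65 and 7.24 FPKM. The isotype mean was the lowest of the 5 for all 3 genes, by less than 1 SD of the no CIA libraries. In the box C/D particle Nop58 averaged 21.6, 24.9, 23.9, 27.4 and 22.9 FPKM and its partner Nop56 47.3, 47.5, 53.1, 58.4 and 51.3 FPKM. The 2 partners thus differed in where combination mice stood against isotype mice, with Nop56 higher (log2 difference 0.10) and Nop58 lower (-0.12), and neither difference passed the test.

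Arthritis itself was compared first, as isotype against no CIA mice, which shares the isotype libraries with the choice of the members. Of the 43 members 0 were called higher and 0 lower (limma, Benjamini-Hochberg adjusted p under 0.05). Over the 14700 tested genes 0.150% were called higher and 0.00680% lower. At so small a share of all genes, a count of 0 among 43 members does not set them apart. At an unadjusted p under 0.05 there were 0 members, against 16.7% of all genes. Rrs1 had a log2 difference of 0.08 ± 0.09 (SE, adjusted p = 0.618). The members with the smallest p were Nob1, at 19.1 FPKM in isotype and 20.9 FPKM in no CIA mice (log2 difference -0.12 ± 0.07, adjusted p = 0.333), and Rrp9, at 14.9 and 16.6 FPKM (-0.14 ± 0.08, adjusted p = 0.341). The median over the members was -0.01, against 0.03 over all genes, and 20 of 43 were above 0 (55.8% of all genes). The members' median turned to 0.111 with the stretch of index numbers in the library titles as a covariate. The 4 no CIA libraries themselves ranged widely: Fbl was 92.9, 73.8, 61.7 and 83.1 FPKM there, a span that covers nearly all of the isotype range of 60.5 to 84.01 FPKM.

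**Figure D2:**
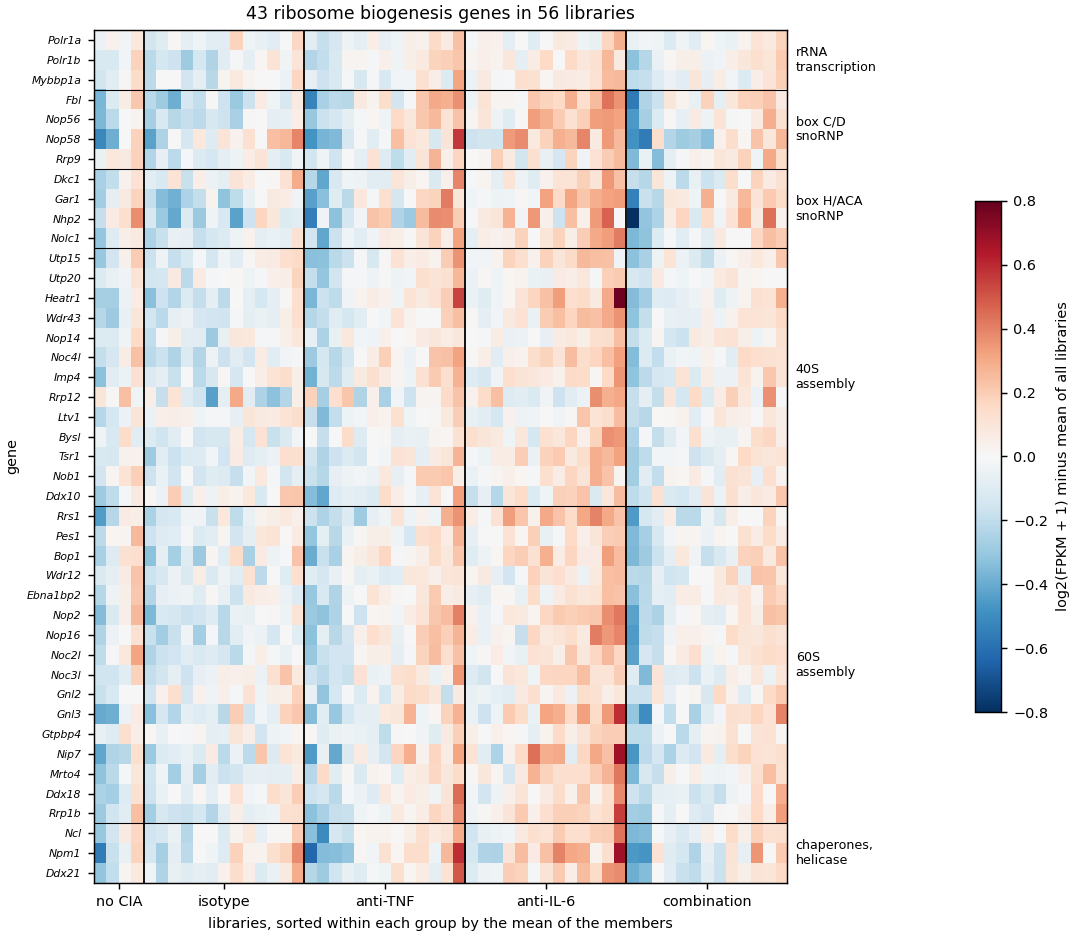
Each cell is 1 gene in 1 library, shown as log2(FPKM + 1) minus that gene's mean over the 56 libraries; genes are grouped by role and libraries are sorted within each group by the mean of the 43 members. Columns shade from blue to red across most genes at once within every group, and Rrp12 departs from that pattern.

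Comparisons of anti-TNF and of combination with isotype mice also share the isotype libraries with the choice, and with each other. For anti-TNF against isotype mice 0 of 43 members passed the test, and 0% of all genes did. At an unadjusted p under 0.05 there were 5 members, all higher, against 3.35% of all genes higher and 2.12% lower. The smallest p belonged to Mrto4, a factor that holds the place of a stalk protein on the large subunit, at 27.9 FPKM in anti-TNF and 25.4 FPKM in isotype mice (log2 difference 0.13 ± 0.05, adjusted p = 0.888). Nop56, a core scaffold protein of box C/D snoRNPs, was next, at 53.1 and 47.5 FPKM (0.15 ± 0.06, adjusted p = 0.888). Rrs1 differed by 0.03 ± 0.06 (adjusted p = 0.981). The median over members was 0.05 (all genes 0.01), with 34 of 43 above 0 (54.3% of all genes).

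Combination against isotype mice gave 0 called members as well, and 0% of all genes. There was 1 member at an unadjusted p under 0.05, against 2.55% of all genes higher and 3.23% lower: Gar1, a core protein of box H/ACA snoRNPs, at 21.3 FPKM in combination and 18.8 FPKM in isotype mice (0.16 ± 0.08, adjusted p = 0.851). Mrto4 followed at 27.4 and 25.4 FPKM (0.10 ± 0.05, adjusted p = 0.889). Rrs1 differed by -0.02 ± 0.06 (adjusted p = 1), so its combination and isotype levels were apart by less than the standard error. The combination mice had received the same anti-IL-6 dose as the anti-IL-6 mice. The median over members was 0.03 (all genes -0.01), and 31 of 43 were above 0 (46.6% of all genes).

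Combination and anti-TNF mice differ in whether anti-IL-6 was given beside anti-TNF. No member of the 43 passed the test here (0% of all genes), and 0 had an unadjusted p under 0.05 (1.09% of all genes). The smallest p values were those of the large-subunit helicase Ddx18, at 15.1 FPKM in combination and 15.7 FPKM in anti-TNF mice (-0.05 ± 0.06, adjusted p = 0.999), and Ddx21, at 15.4 and 16.2 FPKM (-0.06 ± 0.07, adjusted p = 0.999). Rrs1 differed by -0.05 ± 0.06 (adjusted p = 0.999). The median over members was -0.01 and over all genes -0.02, with 14 of 43 above 0 (38.2% of all genes). The members' median turned to 0.015 with muscle and epidermis scores as covariates.

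Both remaining comparisons share the 4 no CIA libraries. In anti-TNF against no CIA mice 0 members were called, against 0.476% of genes higher and 0.0748% lower, and 0 members against 19.1% of genes had an unadjusted p under 0.05. Nop56 had the smallest p (53.1 and 47.3 FPKM, log2 difference 0.16 ± 0.09, adjusted p = 0.309), followed by Mrto4 (27.9 and 25.5 FPKM, 0.13 ± 0.08, adjusted p = 0.329), and Rrs1 differed by 0.11 ± 0.09 (adjusted p = 0.477). The median was 0.04 (all genes 0.03), with 32 of 43 members above 0 (56.8% of all genes). It was -0.015 with median-of-ratios scaling, -0.021 with covariates for muscle and epidermis scores, and 0.168 with the stretch of index numbers in the library titles as a covariate. In combination against no CIA mice 0 members were called, against 0.143% of genes higher and 0.0136% lower, and 0 members against 10.5% of genes had an unadjusted p under 0.05. There the smallest p values were those of Wdr43, a small-subunit processome protein (14.3 and 13.3 FPKM, 0.11 ± 0.08, adjusted p = 0.575), and Mrto4 (27.4 and 25.5 FPKM, 0.10 ± 0.08, adjusted p = 0.581). Rrs1 differed by 0.06 ± 0.09 (adjusted p = 0.767). The median was 0.02 for the members and for all genes, with 30 of 43 members above 0 (54.1% of all genes). It was -0.012 with median-of-ratios scaling and 0.162 with the index stretch as a covariate. Across the 6 tested comparisons no member was called by limma without a covariate. With the index stretch as a covariate Gnl3, a nucleolar GTPase also known as nucleostemin, was called higher in anti-TNF than in no CIA mice (25.4 and 22.3 FPKM).

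The values that chose the members came from anti-IL-6 against isotype mice. They are given as a description, and the counts of genes past the limma threshold in this comparison are no independent test of the members. The log2 difference was above 0 in 41 of 43 members (60.0% of all genes), with a median of 0.16 (all genes 0.03). Past the call threshold were 10 members, all higher, where 0.735% of all genes were called higher and 0.218% lower. That count ran from 2 to 15 on leaving out 1 library at a time and was lowest without anti-IL-6 replicate 9. The share of all genes called was not recorded in those fits. The 3 with the highest difference were Fbl (0.31 ± 0.08), Nop56 (0.29 ± 0.06) and Heatr1, a processome protein also needed for polymerase I transcription (0.27 ± 0.07). Rrs1 was at 0.26 ± 0.06, a level 19.8% higher on the FPKM + 1 scale. Mrto4 (0.25 ± 0.05), Nop16 (0.24 ± 0.06) and Noc4l (0.24 ± 0.06) followed. The 3 lowest of the 10 were Wdr43 (0.21 ± 0.05) and the late small-subunit factors Bysl (0.20 ± 0.04) and Tsr1 (0.19 ± 0.05). Just inside the threshold stood Tsr1 and just outside it Nolc1, a snoRNP chaperone (0.22), so the border does not follow the size of the difference.

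The library values show how far these 10 overlapped. Fbl was 60.5 to 84.01 FPKM (median 71) in isotype and 77.5 to 108.3 FPKM (median 89.02) in anti-IL-6 libraries, and 9 of 13 anti-IL-6 libraries lay above the highest isotype library. Nop56 was 43.0 to 53.8 FPKM (median 47.3) in isotype and 48.3 to 65.7 FPKM (median 59.3) in anti-IL-6 libraries, again with 9 of 13 above. Heatr1 was 3.18 to 4.79 FPKM (median 3.89) and 3.94 to 8.04 FPKM (median 4.79), with 1 anti-IL-6 library far above the others. Mrto4 was 22.6 to 28.4 FPKM (median 25.9) and 25.0 to 37.2 FPKM (median 30.3), with 10 of 13 above. At the other end, Ddx10, a helicase of small-subunit assembly, averaged 6.60 FPKM in anti-IL-6 and 6.62 FPKM in isotype mice. Ltv1, a small-subunit export factor, averaged 15.5 FPKM in both, and Gnl2, a nucleolar GTPase, 22.9 and 22.7 FPKM. Of the polymerase I subunits, Polr1a differed by 0.06 ± 0.04 and Polr1b by 0.17 ± 0.05. Npm1, the most abundant member, differed by 0.13 ± 0.10.

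By role, the median difference between anti-IL-6 and isotype mice was 0.12 for the 3 rRNA transcription genes, 0.21 for the 4 box C/D and 0.25 for the 4 box H/ACA genes. It was 0.16 for the 13 small-subunit factors, 0.19 for the 16 large-subunit factors and 0.13 for the 3 genes of nucleolar chaperones and helicase. Of 103 other genes of the pathway (further polymerase I, assembly and snoRNP genes), 98 were above 0 (60.0% of all genes), with a median of 0.13. Among them 14 were called higher and 0 lower, where 0.735% of all genes were called higher and 0.218% lower. That list was also chosen with earlier results of these data known, so its counts are no independent test. The 5 with the smallest p were Utp4 (0.25 ± 0.05), Nle1 (0.23 ± 0.05), Ppan (0.38 ± 0.08), Tbl3 (0.20 ± 0.05) and Emg1 (0.19 ± 0.05), factors of small-subunit (Utp4, Tbl3, Emg1) and large-subunit (Nle1, Ppan) assembly. In each of the other 9 comparisons 0 of these 103 genes were called, where at most 0.476% of all genes were called higher and 0.156% lower. Of 79 cytosolic ribosomal protein genes, the products that these factors assemble with rRNA, 78 were above 0 (60.0% of all genes). Their median was 0.14, and 0 were called. Myc itself was at 36.1 ± 5.75 FPKM (SD, n = 13) in anti-IL-6 and 29.5 ± 4.33 FPKM (n = 13) in isotype mice, and was not called.

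**Figure D3:**
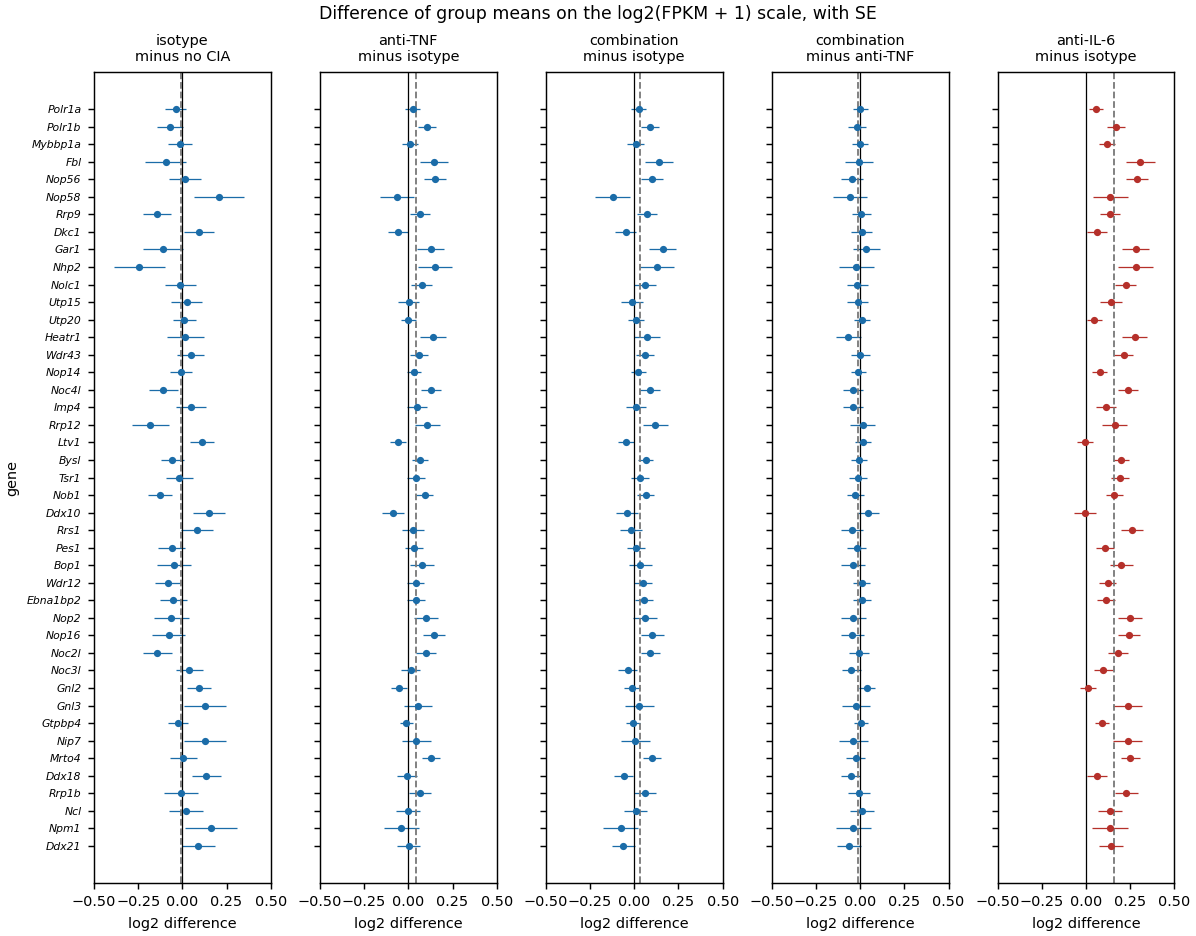
Points are log2 differences of group means on the log2(FPKM + 1) scale for each of the 43 members and bars are 1 SE, for isotype minus no CIA, anti-TNF minus isotype, combination minus isotype, combination minus anti-TNF and anti-IL-6 minus isotype (red, the comparison that chose the members); the dashed line is the members' median. The medians are -0.01, 0.05, 0.03, -0.01 and 0.16 from left to right.

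The other comparisons with anti-IL-6 libraries share those libraries with the choice and are likewise a description. Against combination mice the mean of all 43 members was higher in anti-IL-6 mice, with 0 differences above 0 against 34.5% of all genes (combination minus anti-IL-6 median -0.13, all genes -0.04). Rrs1 was the 1 member past the threshold, at -0.28 ± 0.06, where 0.0408% of all genes were called lower and 0.0612% higher. It passed in 10 of the 26 fits that each left out 1 library of these groups. It did not pass with no filter, with the compared groups alone (-0.28 in both) or with the index stretch as a covariate (-0.29). Against anti-TNF mice the median was 0.12 (all genes 0.02), all 43 members were above 0 (58.8% of all genes) and 0 were called (0% of all genes), with Rrs1 at 0.23 ± 0.06. Against no CIA mice the median was 0.16 (all genes 0.07), and 41 of 43 were above 0 (9108 of all 14700 genes). There 0 members were called (0.401% of genes higher and 0.156% lower), with Rrs1 at 0.35 ± 0.09. The anti-IL-6 mean was the highest of the 5 group means in 39 of 43 members. The exceptions were Rrp9 and Rrp12, an export factor, which were highest in no CIA mice, and Ltv1 and Ddx10, which were highest in isotype mice.

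Libraries of the groups fall unevenly over the index numbers in their titles. These numbers were divided into 5 stretches: 39 to 44, 45 to 57, 58 to 70, 71 to 83 and 84 to 96. They run on without a gap from each stretch to the next, and the labels do not mark this division. Only 3 stretches hold both anti-IL-6 and isotype libraries, and each of these has 1 library on one side. Within them the Rrs1 difference was 0.20 (4 anti-IL-6 against 1 isotype), 0.32 (8 against 1) and 0.38 (1 against 5). With the stretch as a covariate Rrs1 stood at 0.28 and 0 members were called, with the share of all genes called not recorded. Group and stretch are separated by few libraries. For combination against anti-IL-6 mice the Rrs1 difference within stretches was -0.33, -0.21 and -0.26. For the tested comparisons the Rrs1 difference within stretches was 0.06 for isotype against no CIA (1 stretch), -0.16, 0.04 and 0.04 for anti-TNF against isotype, and -0.14, -0.09, 0.11 and 0.12 for combination against isotype. For combination against anti-TNF it was 0.03, -0.13 and 0.08. The sign thus changed between stretches in the last 3 of these comparisons. Within-stretch values could not be had for the comparisons of anti-TNF or combination with no CIA mice, which share no stretch.

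Within groups the members varied together from mouse to mouse, a measure that uses deviations from group means and so does not hold the difference that chose them. Over the 903 pairs of members the median correlation of these deviations in 56 libraries was 0.64, against 0.084 over all pairs of tested genes. The lowest was -0.066 and the highest 0.91, and 901 of the pairs were above 0. The correlation with the mean of the other 42 was highest for Nop2, an rRNA methyltransferase of the large subunit (0.951), and for Ncl (nucleolin, 0.917). It was lowest for Rrp12 (0.228) and Bysl (0.496), and for Rrs1 it was 0.766. Npm1 and Nop58, the partner of Nop56 in box C/D snoRNPs, varied most within groups (SD 0.26 and 0.25 in log2(FPKM + 1)). Gtpbp4 and Polr1a varied least on that scale (0.094 and 0.099). They averaged 5.53 and 3.56 FPKM, and adding 1 narrows the spread of low genes. Members share libraries, depth and the tissue makeup of each paw, so these correlations are a description.

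Markers of several cell types moved with the members within groups. Against the mean level of the 12 muscle markers, 36 of 43 members had a called negative slope, where 55.4% of all genes did. Rrs1 changed by -0.07 ± 0.02 per log2 unit of the muscle score (limma adjusted p = 8.24e-05). Against 20 cell cycle genes 41 of 43 members had a called positive slope (49.4% of all genes), from Npm1 at 0.96 ± 0.08 down to the 2 that were not called, Bysl and Rrp12, and Rrs1 had 0.43 ± 0.07 (adjusted p = 1.49e-06). Against Myc, 40 members had a called positive slope (54.0% of all genes), the exceptions being Rrp12, Bysl and Gtpbp4, and Rrs1 had 0.44 ± 0.06 (adjusted p = 2.48e-08). Against 10 monocyte and macrophage markers 29 members had a called positive slope (40.5% of all genes), and Rrs1 did not (0.08 ± 0.05, adjusted p = 0.116). Neutrophil markers gave 14 called positive and 1 negative slopes (39.2% and 20.8% of all genes), and epidermal markers 7 positive (25.0%). Each score was followed by a large share of all genes.

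These scores also differed between groups. The mean muscle score was 10.1 ± 0.89 (SD, n = 4) in no CIA, 9.53 ± 1.22 (n = 13) in isotype, 9.18 ± 1.39 (n = 13) in anti-TNF, 8.81 ± 1.33 (n = 13) in anti-IL-6 and 9.72 ± 1.13 (n = 13) in combination mice, in log2(FPKM + 1). The cell cycle score was 3.63 ± 0.37 in no CIA, 3.71 ± 0.18 in isotype, 3.73 ± 0.30 in anti-TNF, 3.91 ± 0.19 in anti-IL-6 and 3.65 ± 0.21 in combination mice. Anti-IL-6 mice thus had the lowest muscle and the highest cell cycle score, with overlapping libraries in both. With muscle and epidermis scores as covariates, the Rrs1 difference between anti-IL-6 and isotype mice was 0.23, the members' median 0.12 and the number called 15. The share of all genes called in that fit was not recorded. The part of the cell cycle genes in the difference between anti-IL-6 and isotype mice was not tested.

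**Figure D4:**
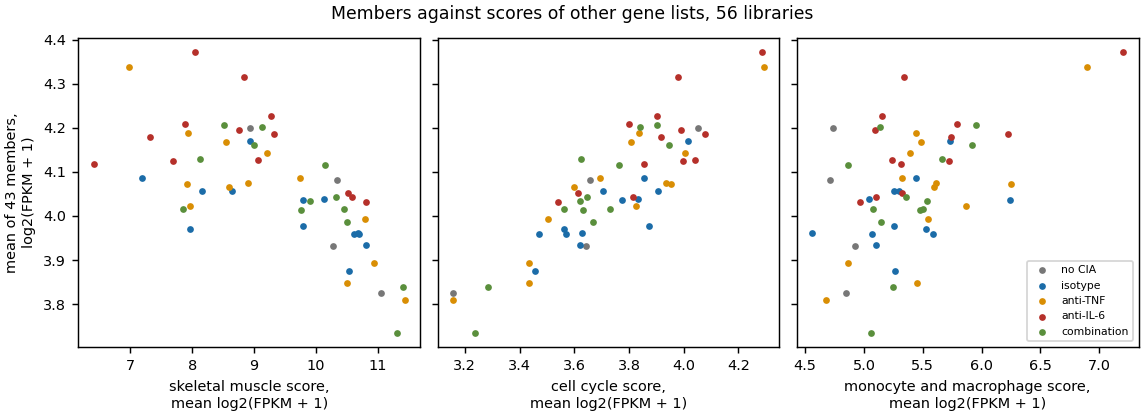
The mean log2(FPKM + 1) of the 43 members in each of the 56 libraries against the mean log2(FPKM + 1) of 12 skeletal muscle, 20 cell cycle and 10 monocyte and macrophage genes, with groups in color. Libraries with high muscle scores tend to have low member levels and libraries with high cell cycle scores tend to have high ones.

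Dbp was compared with the members in single libraries. The gene encodes a transcription factor whose own transcript oscillates over the day, and the hour of sampling was not given in the sources used here. Its level was 112.2, 145.1, 64.9 and 88 FPKM in the no CIA libraries. It ran from 35.6 to 117.5 FPKM (median 64.2) in isotype, 18.3 to 63.3 (median 35.4) in anti-TNF, 5.77 to 42.8 (median 14.5) in anti-IL-6 and 18.5 to 113.7 (median 60.0) in combination libraries. The group with the lowest Dbp was thus the one with the highest Rrs1, while anti-TNF mice, with the next lowest Dbp, had Rrs1 close to the isotype level.

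Within groups, and with 1 common slope for all of them, 0 of 43 members followed Dbp (limma, 0.299% of 14699 genes called positive and 0.102% negative). At an unadjusted p under 0.05 there was 1 member, Rrp9, against 18.2% of all genes. Rrs1 had a slope of -0.02 ± 0.03 log2 units per log2 unit of Dbp (adjusted p = 0.766). The 5 lowest slopes were those of Npm1 (-0.07 ± 0.06), Heatr1 (-0.06 ± 0.04), Ddx21 (-0.06 ± 0.04), Ddx18 (-0.05 ± 0.03) and Dkc1 (-0.05 ± 0.03). The 5 highest were those of Nhp2 (0.07 ± 0.05), Rrp9 (0.06 ± 0.03), the large-subunit factor Ebna1bp2 (0.05 ± 0.03), Nob1 (0.03 ± 0.03) and the small-subunit factor Imp4 (0.03 ± 0.03). The median was -0.02 (all genes -0.0009), and 32 of 43 slopes were below 0 (50.5% of all genes).

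Group by group, no correlation of Rrs1 with Dbp passed the threshold after adjustment over the 4 groups and 2 coefficients. Pearson's r was 0.41 in isotype libraries (n = 13, permutation p = 0.166, adjusted 0.342), and Spearman's rho 0.23 (permutation p = 0.46, adjusted 0.573). In anti-TNF libraries r was -0.47 (n = 13, permutation p = 0.108, adjusted 0.342) and rho -0.43 (permutation p = 0.142, adjusted 0.342). In anti-IL-6 libraries r was -0.36 (n = 13, permutation p = 0.231, adjusted 0.37) and rho -0.41 (permutation p = 0.171, adjusted 0.342). In combination libraries r was 0.12 (n = 13, permutation p = 0.685, adjusted 0.685) and rho 0.20 (permutation p = 0.501, adjusted 0.573). Without the 2 libraries farthest from the median Dbp, r was 0.32, -0.37, -0.25 and 0.34 in the same order, with no change of sign. Within the 5 stretches of index numbers, on deviations from group means, r was 0.40 (6 libraries), -0.002 (11), -0.43 (13), -0.08 (13) and -0.12 (13). The first stretch holds 4 no CIA and 2 isotype libraries, so its value rests on few mice. With 4 libraries the no CIA group allows no such correlation of its own.

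**Figure D5:**
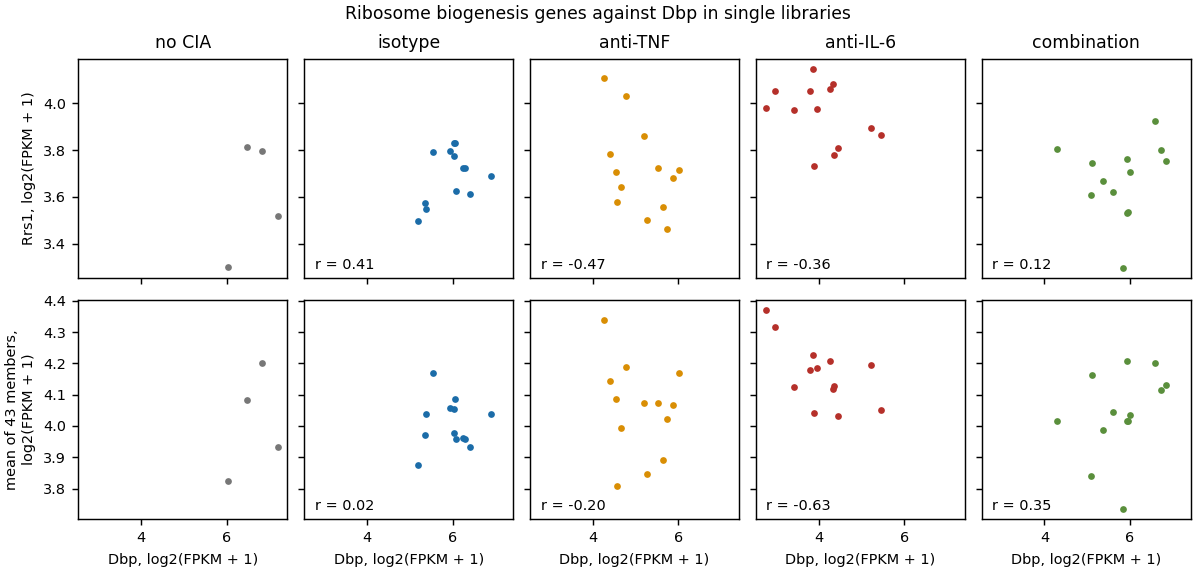
Rrs1 (top) and the mean of the 43 members (bottom) against Dbp, both as log2(FPKM + 1), with 1 point per library and 1 panel per group; r is Pearson's correlation in each group of 13 libraries, and none is given for the 4 no CIA libraries. For the mean of the members r is -0.63 in anti-IL-6 and 0.35 in combination libraries, and the axes are shared along each row.

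The sign of the correlation with Dbp was counted over all 43 members, Rrs1 included. In the 13 anti-IL-6 libraries 41 were negative and 2 positive (median r -0.51, range -0.77 to 0.066), where 47.9% of all genes had a positive slope on Dbp. In the 13 combination libraries all 43 were positive (median 0.29, range 0.015 to 0.53), against 51.3% of all genes. In anti-TNF libraries 11 were positive (median -0.22, 53.6% of all genes) and in isotype libraries 20 (median -0.03, 47.1% of all genes). The mean of the members had r = -0.63 in anti-IL-6 and 0.35 in combination libraries, and -0.75 and 0.37 without the 2 libraries farthest from the median Dbp. In isotype libraries it moved from 0.02 to -0.46 on leaving out 2 such libraries, so that value rests on them. Since the members varied together, the 43 signs are not independent of each other.

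The difference of slopes was tested gene by gene. Combination minus anti-IL-6 was above 0 in 43 of 43 members (53.0% of all genes), with a median of 0.15, and 0 members were called by limma, as were 0% of all genes. At an unadjusted p under 0.05 there were 14 members, against 6.31% of all genes. The smallest p was that of Nip7, a large-subunit factor (0.37 ± 0.11, adjusted p = 0.694), followed by Gnl3 (nucleostemin, 0.30 ± 0.11, adjusted p = 0.694), and Rrs1 differed by 0.09 ± 0.09 (adjusted p = 0.736). Within anti-IL-6 mice alone 10 members had a Dbp slope with an unadjusted p under 0.05 (14.0% of all genes) and 0 were called (0.0544% of genes positive and 0.00680% negative). The difference between combination and anti-IL-6 slopes thus did not pass the test for any member. Every other pair of immunised groups had fewer members at an unadjusted p under 0.05. Combination minus anti-TNF had 3 (1.27% of all genes), with 43 of 43 above 0, and anti-TNF minus isotype had 1 (5.87%). There were 0 for anti-IL-6 minus isotype (0.83%), combination minus isotype (2.86%) and anti-IL-6 minus anti-TNF (4.11%). In anti-IL-6 libraries Dbp also moved with the cell cycle score (r = -0.60) and the monocyte and macrophage score (r = -0.57). In the same order r was 0.18 and -0.22 in combination, 0.09 and -0.57 in isotype and -0.15 and -0.07 in anti-TNF libraries. The part of these scores in the members' relation to Dbp was not tested.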

How the data were processed

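Per the labels' protocols, RNA from 56 paws was isolated with a Qiagen RNeasy kit, and stranded mRNA libraries were sequenced in paired-end mode. DESeq2 appears, with no version, in the submitters' processing notes. Aligner, build and annotation: not given in the sources used here. Values deposited by the authors are FPKM, a unit read from the values because no header states it. The 43 members and all gene lists were chosen with earlier results of these data known; 103 of 108 further pathway symbols were matched. From the FPKM, limma 3.58.1 (R 4.3.3, trended and robust) was fitted to log2(FPKM + 1), which understates changes of low genes. The 56 libraries entered 1 fit with group means (51 residual degrees of freedom). The filter, a group mean of 1 FPKM or more, left 14700 genes, over which two-sided p-values were adjusted by Benjamini-Hochberg (threshold 0.05). The Dbp slope used centred log2 Dbp beside the group means. Slopes by group (46 residual degrees of freedom) and slopes on Myc and marker scores (mean log2(FPKM + 1) of a list) were added after the data were seen. Correlations used 100000 permutations. Depth was estimated from the step size of low values in single-exon genes of 400 bases or more, of which 75.0% to 81.3% were whole steps (tolerance 0.05), so counts were not rebuilt. The fit was tested on simulated data. Members were named by rule: Rrs1 everywhere; called members (3 highest and 3 lowest where more than 6 passed), otherwise the 2 with the smallest p; the extremes of level per role and of the Dbp slope; and the border of a call. Other members named for their values were chosen after these were seen. Alternatives were pseudocounts of 0.1 and 10, no filter, median-of-ratios scaling, covariates for index stretch or tissue scores, the compared groups alone and leaving out each library. No libraries held identical values.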

Additional observations from a re-analysis of the deposited data

How the results depend on the processing

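Apart from leaving out libraries, 316 values were recomputed under other settings, and 297 were labelled the same. For Rrs1 differences, slopes and correlations this meant the same direction and side of the threshold. Medians had to move by less than the spread between libraries, so one near 0 could change sign. Counts of called members had to stay equal or within a set ratio, and counts that stayed at 0 were included. The 6 tested comparisons had 0 called members under every setting, except Gnl3, 1 member higher in anti-TNF than in no CIA mice with the index stretch as a covariate. The Rrs1 difference of combination against isotype turned to 0.004 with muscle and epidermis scores as covariates. The members' median changed sign in 4 comparisons: isotype against no CIA (0.111 with the index stretch), combination against anti-TNF (0.015 with the tissue scores), anti-TNF against no CIA (-0.015 with median-of-ratios scaling, -0.021 with the tissue scores) and combination against no CIA (-0.012 with that scaling). For anti-IL-6 against isotype, 3 members (Bysl, Mrto4 and Nop56) were called with no filter, 16 with median-of-ratios scaling, 0 with the index stretch and 18 with the compared groups alone; Rrs1 stayed at 0.261 with no filter and 0.283 with the index stretch and lost its call in both. For combination against anti-IL-6, 0 members were called with no filter (Rrs1 -0.281), the index stretch (-0.29) or the compared groups alone (-0.281). For anti-IL-6 against no CIA, 1 member was called with a pseudocount of 0.1 (Rrs1, 0.37) and 3 with the index stretch (Ddx21, Gnl3 and Wdr43). With that covariate the members' median was 0.168 for anti-TNF and 0.162 for combination against no CIA. The share of all genes called was not recorded under these settings or on leaving out libraries. Changes in the counts therefore need not be particular to the members.

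Leaving out 1 library at a time, the members called for anti-IL-6 against isotype ranged from 2 to 15. On leaving out anti-IL-6 replicate 6, 9, 10, 11, 12 or 13 the count was 6, 2, 6, 4, 5 or 4, and on leaving out isotype replicate 1, 2, 6, 8 or 12 it was 3, 5, 4, 4 or 5. Rrs1 ranged from 0.244 to 0.279 and lost its call without anti-IL-6 replicate 9 or 11 or isotype replicate 1. For combination against anti-IL-6 the count ranged from 0 to 1 and Rrs1 from -0.302 to -0.249, with the call lost in 16 of 26 fits (without anti-IL-6 3, 4, 6, 8, 9, 11, 12 or 13, or combination 1, 2, 4, 6, 8, 9, 12 or 13). For anti-IL-6 against no CIA the count ranged from 0 to 1 and Rrs1 from 0.243 to 0.414, with a call without anti-IL-6 replicate 1, 2, 5 or 7. The small Rrs1 differences changed sign: anti-TNF against isotype ranged from -0.006 to 0.048 (lowest without anti-TNF replicate 4, and 0 without 12), combination against isotype from -0.041 to 0.011 (highest without combination 1), isotype against no CIA from -0.018 to 0.153 and combination against no CIA from -0.038 to 0.133 (lowest without no CIA replicate 3). The cause was not tested. No paired analysis was possible because replicate numbers were given in accession order and no label ties a mouse of one group to a mouse of another. Depth limits little at these levels, since counting error in Rrs1 is below the spread between mice.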
